A study of Mus musculus with 8 samples.

Results

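A Cas9 cut in Dach1 on mouse chromosome 14 was used as bait, and the DNA ends joined to it were read. The junctions described here are those whose prey end lay more than 1 Mb and up to 20 Mb from that cut on the same chromosome. They numbered 625 distinct junctions, of 10359 distinct junctions in the 4 libraries of the Dach1 site (site 1) and 11310 in the 8 libraries of both bait sites. A junction was a chromosome, a 5′ end of the prey alignment and a strand, with repeated lines counted once, and distances were taken from position 98168726 of chromosome 14 in the mouse build mm10. That position, the bait end, was the commonest 5′ end next to the cut in the non-targeting library, where all 378 of 378 reads ran on the plus strand. It lies inside Dach1 (chr14:97786846-98169765, minus strand), a transcriptional regulator gene, 1039 bp downstream of the gene's annotated start. The range consists of a centromeric stretch, chr14:78168726-97168725, and a telomeric stretch, chr14:99168727-118168726, each 19 Mb long. No measured value other than position chose the members.

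The study compared translocations in cells with normal or expanded ataxin-7, the protein whose lengthened glutamine tract causes a spinocerebellar ataxia. All samples were genomic DNA of Neuro-2a, a mouse neuroblastoma cell line, taken 48 h after transient transfection, although the series title names a knock-in mouse model. In each group cells from 3 transfections were pooled, GFP-positive cells were sorted, and their DNA was sheared to about 750 bp. The 10Q library came from cells given ataxin-7 with 10 glutamines together with SpCas9 and the site 1 guide, and the 92Q library from cells given ataxin-7 with 92 glutamines together with the same nuclease and guide. The sgRNA only library came from cells given SpCas9 and the site 1 guide without ataxin-7. The non-targeting library came from cells given SpCas9 and a guide that does not target the site, read with the site 1 primer. The series design text describes the guide-only control for the other site alone, so the comparisons with sgRNA only rest on that library's own labels. Each group was 1 library, so every test below compares the counts of libraries, and the spread between cultures was not measured. Intervals are 95% intervals that cover counting error only. PCR copies were not told apart here by molecular identifiers, and the intervals do not allow for them.

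In translocation sequencing, a primer beside an engineered break amplifies whatever DNA has been ligated to that break, so each prey end marks another broken end. Broken ends on the same chromosome meet the bait end more often than ends elsewhere, and the frequency of contact between chromosomal sites falls with the distance between them. The strand of the prey read shows the arrangement of the joint: with a bait read that runs in the plus direction, a plus-strand prey on the telomeric side keeps the chromosome's order, as loss of the DNA in between does. A minus-strand prey on the telomeric side has the order of an inversion, and a plus-strand prey on the centromeric side has that of a duplication or an excised circle.

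The guide sets the cut and the primer sets the bait read, and they are shown because together they define the bait. The bait end used for distances was taken from the non-targeting library, as given above. The 10 bases of the guide nearest the PAM are in capitals, and the primer carries no marked bases.
site 1 sgRNA: ggtagacatcAGCGCTGTTG
site 1 bait primer: actaaaaagagcgcccctctttc
In the range, 146 RefSeq promoter windows of 300 bp (250 bases before to 50 after a start, build GRCm38.p6, the same assembly as mm10) belonged to 123 genes, and 1 junction fell inside any of them. That junction, from the 10Q library, had its 5′ end at position 106267610 on the minus strand, 215 bp before the start of the predicted gene Gm36107, with 2 reads, 1 at a mapping quality of 24 and the other at 0. Its window, chr14:106267575-106267874 on the plus strand, is shown as the one place where a prey end met a promoter. The 36 bases in capitals are those of the window that the prey read covered.
Gm36107 promoter window: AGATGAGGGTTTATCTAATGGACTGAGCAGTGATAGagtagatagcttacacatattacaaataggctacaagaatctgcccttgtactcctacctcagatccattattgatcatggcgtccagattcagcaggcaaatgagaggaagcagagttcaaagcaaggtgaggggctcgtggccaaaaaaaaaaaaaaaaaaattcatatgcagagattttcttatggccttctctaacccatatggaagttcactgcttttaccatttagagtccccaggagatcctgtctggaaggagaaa
The other junctions within 1 kb of a listed start lay 283 bp from Commd6 and 804 bp from 4933432I03Rik. Both came from the 10Q library and had a mapping quality of 42, the highest value in the files.

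The 10Q library held 428 junctions in the range from 701 reads, the sgRNA only library 175 from 261 reads, the 92Q library 22 from 22 reads, and the non-targeting library none. The libraries differed in size, with 5542, 3873, 816 and 128 distinct junctions in all, in the same order. The range therefore held 7.72% of the 10Q junctions (7.03 to 8.46), 4.52% of the sgRNA only junctions (3.89 to 5.22) and 2.70% of the 92Q junctions (1.70 to 4.05). The non-targeting library held 0 of 128, which allows a share of up to 2.34%. The 10Q share was the highest and its interval overlapped neither of the others, whereas the 92Q and sgRNA only intervals overlapped slightly.

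The 10Q share was 3.20 percentage points above sgRNA only (Fisher's exact test, two-sided, Benjamini-Hochberg adjusted over the 25 planned tests, p = 5.16e-09). The 92Q share was 5.03 percentage points below 10Q (adjusted p = 1.05e-07 by Fisher's exact test), and this call was lost among junctions with 2 or more reads, of which 92Q had none in the range (adjusted p = 0.132). The difference of 1.82 points between sgRNA only and 92Q did not pass Fisher's exact test (adjusted p = 0.0680). Its call and its order depended on the denominator. The difference also missed the threshold at a mapping quality of 30 or more, with 2 or more reads and with reads counted. Over chromosome 14 junctions alone, those near the cut included, 92Q was above sgRNA only, a comparison that was not tested. These shares were 13.0% in 10Q, 7.44% in sgRNA only and 8.40% in 92Q (22 of 262). Against the off-cut junctions alone, the shares were 14.0% in 10Q, 9.31% in sgRNA only and 3.64% in 92Q, and 92Q was below sgRNA only by Fisher's exact test, with adjusted p = 1.93e-05. Against the other chromosomes plus the range, which leaves out everything near the cut, the shares were 16.0%, 10.3% and 3.82% (adjusted p = 2.78e-06 by Fisher's exact test for 92Q against sgRNA only). The excess of sgRNA only over the non-targeting library passed by Fisher's exact test, with adjusted p = 0.0325, but not when only junctions with a mapping quality of 30 or more were kept (adjusted p = 0.204), with 2 or more reads (0.646) or with an inner edge of 2 Mb (0.0718).

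Most junctions in the range carried 1 read. In 10Q the mean was 1.64 reads per junction against 2.37 over the library, in sgRNA only 1.49 against 2.28, and in 92Q 1 against 1.18. The whole-library means include the junctions within 10 kb of the bait end. The share with 2 or more reads was 38.6% in the 10Q range, beside 35.7% at 10 kb to 1 Mb, 36.7% beyond 20 Mb and 28.2% on other chromosomes, and in sgRNA only it was 27.4%, beside 35.1%, 29% and 25.0%. Single-read junctions made up 61.4% of the range in 10Q, 72.6% in sgRNA only and 100% in 92Q, and the most reads on any junction were 8, 6 and 1. The nearest member lay 1000035 bp from the bait end, in 10Q, and the next 2 lay at 1026713 and 1036463 bp, in sgRNA only. Just inside that limit, junctions at 996915, 974514 and 967562 bp, all in 10Q, were left out. The outermost members lay at 19997235 and 19985795 bp in 10Q and 19947823 bp in sgRNA only, and the first junctions past the range at 20103720 bp in sgRNA only and 20228915 bp in 10Q. Both limits cut through a continuous run of junctions.

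Density fell steeply out to the 5 to 10 Mb bin and changed little from there to 20 Mb. In 10Q it was 40 junctions per Mb at 1 to 2 Mb (31.7 to 49.8), 24.5 at 2 to 3 Mb, 16.8 at 3 to 5 Mb and 8.50 at 5 to 10 Mb. It was then 6.30 per Mb at 10 to 15 Mb (4.84 to 8.06) and 8.40 at 15 to 20 Mb (6.70 to 10.4), and the intervals of the last 3 bins overlapped. In sgRNA only the same bins held 15 per Mb (10.1 to 21.4), 11.0, 6.75, 3.40, 3.20 and 3 (2.02 to 4.28). In 92Q they held 1.5, 1.5, 0.500, 0.500, 0.200 and 0.700 per Mb, each from 7 junctions or fewer.

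The level far from the cut was still above that of other chromosomes in the 10Q and sgRNA only libraries. In 10Q the density was 24.5 per Mb at 1 to 5 Mb, 7.73 at 5 to 20 Mb, 4.70 beyond 20 Mb on chromosome 14 and 0.913 on the other chromosomes. In sgRNA only these were 9.88, 3.20, 2.24 and 0.621 per Mb. In 92Q they were 1.00 (0.432 to 1.97), 0.467 (0.255 to 0.783), 0.355 and 0.225, so the 5 to 20 Mb interval of 92Q lay just above its density on other chromosomes. The non-targeting library had none in the range, which allows up to 0.123 per Mb at 5 to 20 Mb, beside 0.0412 on other chromosomes. Beyond 20 Mb on chromosome 14 it had 8 junctions, or 0.0979 per Mb (0.0423 to 0.193). That interval also lay just above its density on other chromosomes, in a library whose guide does not target the site. These densities are raw counts per Mb of libraries of different size, so they are compared by distance within a library and not by level between libraries.

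**Figure D1:**
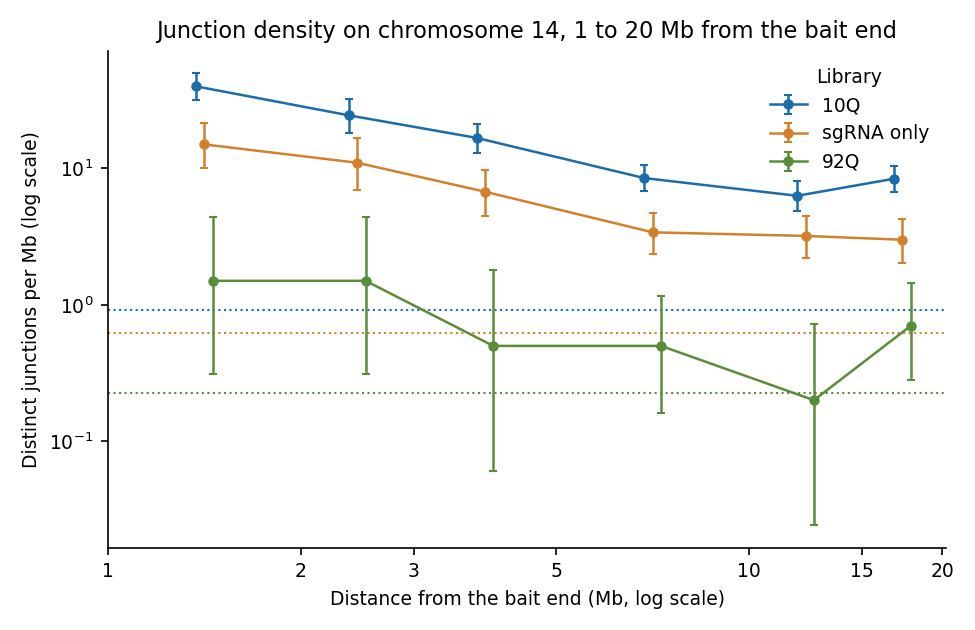
Distinct junctions per Mb (vertical, log scale) against distance from the bait end in Mb (horizontal, log scale), both sides summed, for the 10Q, sgRNA only and 92Q libraries with exact Poisson 95% intervals; dotted lines give each library's density on other chromosomes. The 10Q density falls from 40 per Mb at 1 to 2 Mb to 8.50 at 5 to 10 Mb and is 8.40 at 15 to 20 Mb.

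A power law fitted to the distances gave an exponent, the steepness of the fall on a log-log scale, of 0.692 in 10Q (0.580 to 0.804), 0.733 in sgRNA only (0.557 to 0.906) and 0.514 in 92Q (-0.0165 to 1.01). The 3 intervals overlapped. Fitted apart, a division chosen after the densities were seen, the exponent of 10Q was 0.739 at 1 to 5 Mb (0.435 to 1.04) and 0.0232 at 5 to 20 Mb (-0.317 to 0.356). In sgRNA only it was 0.932 (0.455 to 1.41) and 0.275 (-0.244 to 0.783). The intervals of the outer stretch included 0, a flat profile, in both libraries, while those of the inner stretch did not. Inner and outer intervals were apart in 10Q but overlapped in the sgRNA only library.

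The share of range junctions at 1 to 5 Mb was 45.8% in 10Q (196 of 428), 45.1% in sgRNA only (79 of 175) and 36.4% in 92Q (8 of 22). No pair passed Fisher's exact test, with adjusted p = 0.724 for 92Q against 10Q, 0.967 for 10Q against sgRNA only and 0.724 for 92Q against sgRNA only. Median distances were 5.87, 5.50 and 5.39 Mb. The 10Q and sgRNA only values lay within 1 percentage point of each other, and the 92Q share rests on 8 junctions.

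The centromeric and telomeric stretches, of equal length, held similar numbers of junctions. The centromeric share was 46.3% in 10Q (41.5 to 51.1; 198 of 428), 50.9% in sgRNA only (43.2 to 58.5; 89 of 175) and 45.5% in 92Q (10 of 22), and each interval included 50%. No pair of libraries passed Fisher's exact test, with adjusted p = 1 for 92Q against 10Q, 0.623 for 10Q against sgRNA only and 0.785 for 92Q against sgRNA only. The decay exponents of the sides were 0.672 centromeric and 0.710 telomeric in 10Q, and 0.702 and 0.764 in sgRNA only. In 92Q they were 0.806 (0.0545 to 1.53) and 0.242 (-0.562 to 0.940), with overlapping intervals. Between 1 to 5 Mb and 5 to 20 Mb, no difference in the centromeric share passed the test, with 45.4% and 47.0% in 10Q (adjusted p = 0.838 by Fisher's exact test) and 49.4% and 52.1% in sgRNA only (adjusted p = 0.838). In 92Q the shares were 62.5% (5 of 8) and 35.7% (5 of 14), the opposite order, with adjusted p = 0.674 by Fisher's exact test.

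In windows of 1 Mb, 38 in all, 10Q held 2 to 44 junctions with a median of 9, and sgRNA only 0 to 18 with a median of 3.5. The 92Q library had no junction in 23 of the 38 windows. The fullest 10Q windows were the innermost ones, with 44 junctions on the telomeric and 36 on the centromeric side. Farther out, 10Q had 16 junctions in the telomeric window at 18 to 19 Mb and 14 in the centromeric window at that distance. In these windows sgRNA only had 2 and 4. The window counts of 10Q and sgRNA only had a Pearson correlation of 0.823 and a Spearman correlation of 0.701, across windows that share the fall with distance. Over the 30 windows beyond 5 Mb these were 0.439 and 0.508.

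**Figure D2:**
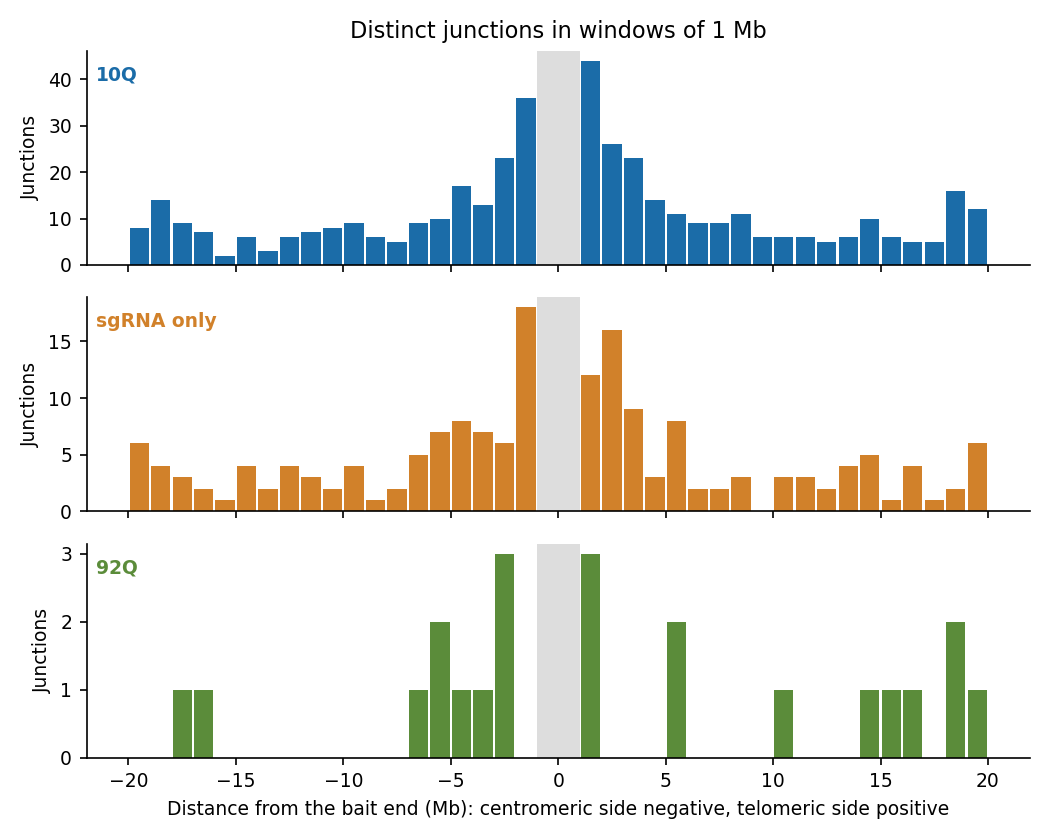
Distinct junctions in each 1 Mb window (vertical, a separate linear scale for each library) against distance from the bait end in Mb (horizontal, centromeric side negative), with 1 panel each for 10Q, sgRNA only and 92Q. In 10Q counts are highest in the innermost windows on both sides, reaching 44. In sgRNA only the highest count is 18, in the innermost centromeric window, and the telomeric side is highest at 2 to 3 Mb, with 16. In 92Q 23 of the 38 windows are empty.

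Strand depended on side in both larger libraries. In 10Q, 65.7% of centromeric junctions (130 of 198) and 46.1% of telomeric junctions (106 of 230) were on the plus strand, a difference of 19.6 points (adjusted p = 0.000514 by Fisher's exact test). In sgRNA only these were 60.7% (54 of 89) and 33.7% (29 of 86), a difference of 27.0 points (adjusted p = 0.00297 by Fisher's exact test). In 92Q they were 30.0% (3 of 10) and 50.0% (6 of 12), the opposite order, which did not pass Fisher's exact test, with adjusted p = 0.691. With sides pooled, the plus-strand share was 55.1%, 47.4% and 40.9%, and no pair of libraries passed the test. Among junctions with a mapping quality of 30 or more, the side differences were 16.0 points in 10Q and 21.1 in sgRNA only and no longer passed Fisher's exact test, with adjusted p = 0.105 and 0.167.

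Read relative to the bait, prey reads that run toward the bait end are plus on the centromeric and minus on the telomeric side. Comparisons on this bait-facing share were chosen after the strand values were seen and were adjusted over 24 added tests. It was 59.3% in 10Q (54.5 to 64.0; 254 of 428), 63.4% in sgRNA only (55.8 to 70.6; 111 of 175) and 40.9% in 92Q (20.7 to 63.6; 9 of 22). With the sides pooled, the intervals of 10Q and sgRNA only lay above 50% and that of 92Q included it. No pair of libraries passed Fisher's exact test, with differences of -18.4 points for 92Q against 10Q (adjusted p = 0.260), -22.5 points for 92Q against sgRNA only (0.197) and -4.08 points for 10Q against sgRNA only (0.544). Over the whole range by side, the interval lay above 50% on the centromeric side of 10Q (65.7%, 58.6 to 72.2) and the telomeric side of sgRNA only (66.3%, 55.3 to 76.1). It included 50% on the telomeric side of 10Q (53.9%, 47.2 to 60.5) and the centromeric side of sgRNA only (60.7%, 49.7 to 70.9).

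The same share was lower nearer the cut. At 10 kb to 1 Mb, 34.8% of 10Q junctions (157 of 451) and 28.6% of sgRNA only junctions (93 of 325) faced the bait, 24.5 and 34.8 points below the range (adjusted p = 2.85e-12 and 6.25e-13 by Fisher's exact test). Most of that contrast lay at 10 to 100 kb, where the share was 26.5% in 10Q and 24.0% in sgRNA only. At 0.3 to 1 Mb it was 49.6% and 53.1%, at 1 to 5 Mb 57.1% and 67.1%, and at 5 to 20 Mb 61.2% and 60.4%. Without positions within 1 kb of a junction of another library, the 10Q contrast was 11.5 points and did not pass Fisher's exact test, with adjusted p = 0.0735. Beyond 20 Mb the share was 52.9% in 10Q and 49.7% in sgRNA only, 6.48 and 13.7 points below the range, and neither difference passed (adjusted p = 0.197 and 0.0504 by Fisher's exact test). With reads counted in place of distinct junctions, both passed, at 9.12 and 19.7 points (adjusted p = 0.00370 and 2.63e-05 by Fisher's exact test), where reads of 1 junction are not independent. In 92Q the share was 31.8% at 10 kb to 1 Mb and 51.7% beyond 20 Mb, and neither differed from the range by a test that passed (adjusted p = 0.787 and 0.655 by Fisher's exact test).

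By side, the bait-facing share at 5 to 20 Mb in 10Q was 68.8% on the centromeric side (59.2 to 77.3) and 54.5% on the telomeric side (45.2 to 63.5). In sgRNA only it was 56.0% and 65.2% there. The larger side thus differed between these libraries, and their intervals overlapped on each side.

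**Figure D3:**
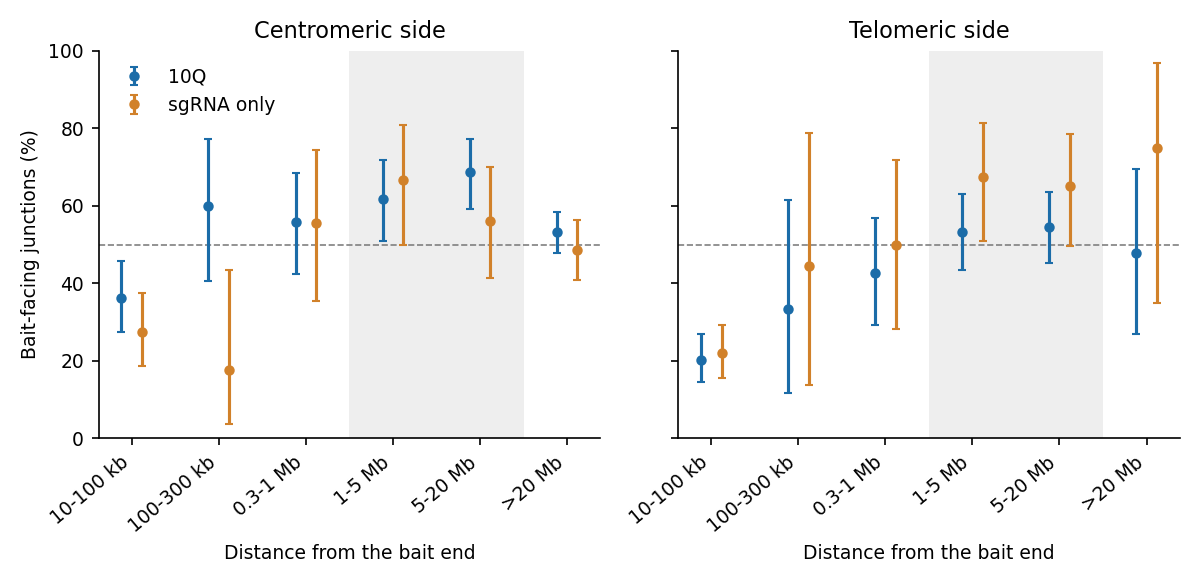
Percentage of distinct junctions whose prey read runs toward the bait end (vertical) by distance class (horizontal), centromeric and telomeric sides in separate panels, for 10Q and sgRNA only with exact 95% intervals; the grey band marks 1 to 20 Mb and the dashed line 50%. At 10 to 100 kb the telomeric share is 20.2% in 10Q and 21.9% in sgRNA only, and at 5 to 20 Mb it is 54.5% and 65.2%.

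Mapping quality, the aligner's score for how uniquely a read was placed, ran from 0 to 42 in the files. In the range, 62.1% of 10Q junctions (266 of 428), 66.9% of sgRNA only junctions (117 of 175) and 50.0% of 92Q junctions (11 of 22) had a read at 30 or more. No pair of libraries passed Fisher's exact test, with adjusted p = 0.623, 0.623 and 0.482. The highest score, 42, was reached by 54.4%, 57.1% and 45.5% of junctions, and a score of 0 was held by 13.6%, 12.6% and 27.3%. The 22 junctions of 92Q had 6 at 0 and 10 at 42, so most of them lay at the extremes, as most did in 10Q and sgRNA only.

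Junctions in the range were better mapped than those on other chromosomes. In 10Q 38.9% of other-chromosome junctions (872 of 2243) reached 30, 23.3 points below the range (adjusted p = 2.18e-17 by Fisher's exact test over the added tests). In sgRNA only it was 38.3% (583 of 1522), 28.6 points below (adjusted p = 3.85e-12 by Fisher's exact test). In 92Q it was 44.2%, which did not pass Fisher's exact test, with adjusted p = 0.725. With only junctions of 2 or more reads, the differences were 5.22 points in 10Q and 15.8 in sgRNA only and did not pass Fisher's exact test, with adjusted p = 0.461 and 0.132. The neighbouring classes on chromosome 14 were nearer the range, at 67.6%, 69.5% and 72.7% for 10 kb to 1 Mb and 56.5%, 55.7% and 51.7% beyond 20 Mb, in 10Q, sgRNA only and 92Q.

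**Figure D4:**
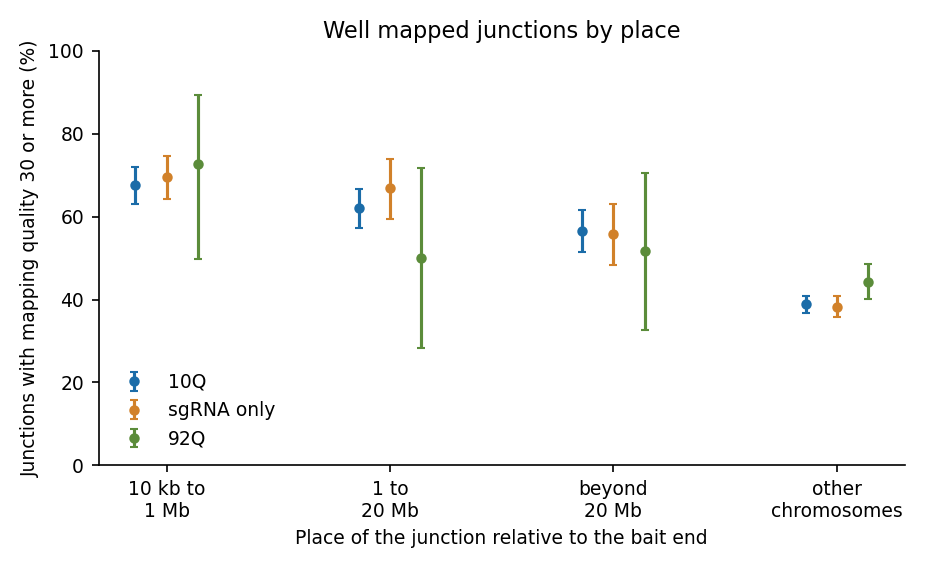
Percentage of distinct junctions with a mapping quality of 30 or more (vertical) at 10 kb to 1 Mb, 1 to 20 Mb, beyond 20 Mb on chromosome 14 and on other chromosomes (horizontal), for 10Q, sgRNA only and 92Q with exact 95% intervals. The 1 to 20 Mb values are 62.1%, 66.9% and 50.0%, and the other-chromosome values 38.9%, 38.3% and 44.2%.

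Within the range, no difference in mapping quality with distance passed the test at a score of 30, and in 10Q one did at a score of 10 (12.2 points, adjusted p = 0.0262 by Fisher's exact test). The share at 30 or more was 64.8% at 1 to 5 Mb and 59.9% at 5 to 20 Mb in 10Q (adjusted p = 0.623 by Fisher's exact test), and 69.6% and 64.6% in sgRNA only (adjusted p = 0.724 by the same test). In 92Q it was 37.5% (3 of 8) and 57.1% (8 of 14), the opposite order, with adjusted p = 0.785 by Fisher's exact test. By side it was 56.1% centromeric and 67.4% telomeric in 10Q, and 62.9% and 70.9% in sgRNA only, comparisons that were not tested. The bait-facing share was 57.1% among well mapped and 63.0% among poorly mapped junctions of 10Q, and 60.7% and 69.0% in sgRNA only, and neither difference passed (adjusted p = 0.489 and 0.544 by Fisher's exact test). In 92Q it was 54.5% and 27.3%, the opposite order, with adjusted p = 0.544 by Fisher's exact test. Each junction was given the best score and the longest aligned span among its reads. Junctions at a score of 42 had a median span of 141 bp, and those at 0 had 136 bp in 10Q, 133 bp in sgRNA only and 132.5 bp in 92Q. A full span, 141 bp or more, was present in 96.6% of well mapped and 35.8% of poorly mapped 10Q junctions. Of the 165 range junctions of 10Q with several reads, 73 had reads of differing mapping quality, and in 46 of these the best was at 30 or more and the lowest below it.

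Positions were spread over the range and rarely recurred. The median gap between neighbouring junctions was 46653.5 bp in 10Q, 123674 bp in sgRNA only and 935736 bp in 92Q, and the widest gaps were 714976, 1419400 and 9965642 bp. Merging same-strand positions within 5 bp took 10Q from 428 to 427 and left sgRNA only at 175 and 92Q at 22. The same merging removed 4.95% of other-chromosome junctions in 10Q, 5.65% in sgRNA only and 0.361% in 92Q. In 10Q and sgRNA only it removed 0.260% and 1.64% beyond 20 Mb on chromosome 14, and 1.55% and 4.62% at 10 kb to 1 Mb. Linking junctions by gaps of up to 10 kb gave 13 loci of 3 or more in 10Q, holding 43 junctions, 2 loci with 7 junctions in sgRNA only and 0 in 92Q. With a mapping quality of 30 or more, 3 loci remained in 10Q and 1 in sgRNA only.

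The densest 10Q loci held 5 junctions each, at chr14:99885323-99905475 inside Klf12, where all 5 were well mapped, and at chr14:117046844-117066432 inside Gpc6, where 3 were. The densest sgRNA only locus held 4 well mapped junctions at chr14:100594090-100613312. Between libraries, 10 of the 428 10Q junctions lay within 1 kb of an sgRNA only junction, 9 of the 175 in the other direction, and 0 were at the same position and strand. No number expected from the spread of positions was set beside these counts, so whether they are few or many was not tested. One exact position was shared by 10Q and 92Q, at 117890352 on the plus strand inside Gpc6, with 1 read in each library, a mapping quality of 42 and different read names. All reads of the 4 libraries came from 1 flow-cell lane, per the read names.

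The range overlapped 306 annotated genes, of which 53 were protein-coding and 98 long noncoding RNAs, and 25 coding genes held a junction. Coding gene bodies covered 18.9% of its bases. They held 27.8% of 10Q junctions (23.6 to 32.3; 119 of 428), 24.0% of sgRNA only junctions (17.9 to 31.0; 42 of 175) and 31.8% of 92Q junctions (13.9 to 54.9; 7 of 22). The 10Q interval lay above the covered share and the other intervals included it. The 5 longest coding genes covered 11.2% of the bases and held 16.6% of 10Q junctions (13.2 to 20.5), 11.4% of sgRNA only junctions (7.12 to 17.1) and 18.2% of 92Q junctions. Gene bodies are not spread evenly over distance, so each named gene is given beside the number that the same library's density on that side and distance bin would place in a body of its length. That number includes the gene's own junctions, and no test was made on single genes.

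Klf12, a Kruppel-like transcriptional repressor (chr14:99866181-100285891), held the most junctions of any gene in 10Q, whereas Pcdh9 led in sgRNA only and Gpc6 in 92Q. Klf12 had 24 in 10Q, 2 in sgRNA only and 0 in 92Q, against 16.4, 5.51 and 0.908 from the bin density. It thus took 5.61% of the 10Q range (3.63 to 8.23) and 1.14% of the sgRNA only range (0.139 to 4.07), and these intervals overlapped. Klf12 was singled out by its 10Q count, so that choice itself favours a 10Q excess over the bin number and over sgRNA only. Of the 24, 19 were well mapped, and 11 were on the plus strand and 13 on the minus strand. Its neighbour Klf5, a Kruppel-like factor of epithelial cells (chr14:99298691-99313412), held 2 in 10Q and none in the other libraries.

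The glypicans, heparan sulfate proteoglycans anchored to the cell surface, lie side by side at the outer end of the telomeric stretch and differed. Gpc6 (chr14:116924920-117979529) held 20 junctions in 10Q, 6 in sgRNA only and 3 in 92Q, against 9.28, 2.95 and 1.05 from the bin density. Gpc5 (chr14:115092201-116525192), the longer gene, held 9, 2 and 0, against 12.6, 4.01 and 1.43. Gpc6 was thus above and Gpc5 below the bin number in all 3 libraries. Both genes lie in the same bin, so junctions in either raise the number given for both, and these departures are not independent. The 92Q counts of 3 and 0 add little. Of those 3 junctions, each with 1 read, the one at 117081582 had a mapping quality of 0. The one at 117890352 had the same position and strand as a 10Q junction. Of the 20 Gpc6 junctions in 10Q, 10 were well mapped, as were 7 of the 9 in Gpc5.

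On the centromeric side, Klhl1, a kelch-like actin-binding protein of the brain (chr14:96105265-96519034), held 17, 4 and 1 junctions in 10Q, sgRNA only and 92Q, against 14.1, 6.69 and 0.190. Of the 17, 6 were well mapped. Pcdh9, a protocadherin that mediates cell adhesion (chr14:93013700-93892834), held 14, 9 and 1, against 12.1, 6.02 and 0.817, the highest count in sgRNA only. Diaph3, a formin that assembles actin filaments (chr14:86655357-87141247), held 4, 1 and 0, against 2.92, 1.46 and 0. These genes lay near the bin number in 10Q.

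The long noncoding RNA gene Gm34061 (chr14:99578466-99689318) held 6 junctions in 10Q and 2 in sgRNA only, near the 4.88 and 1.33 from the bin density. All 6 and both sgRNA only junctions were on the minus strand, which faces the bait on this side. Gm46481, another long noncoding RNA gene (chr14:100979465-101056086), held 4 in 10Q and 2 in sgRNA only, against 1.99 and 1.23.

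By gene list, all 21 members lay in the range and 13 held a junction in any library, beside 25 of the 53 coding genes of the range. These counts do not allow for gene length, and nothing particular to a list is read from them. Of the 4 protocadherins, 2 held junctions, Pcdh9 and Pcdh17, the second with 1 in 10Q. Of the 3 Slitrk genes, which encode synaptic adhesion receptors, none did. Of 3 developmental genes, 1 did: Ednrb, an endothelin receptor needed by neural crest cells, with 1 in 10Q. Of 6 genes of the cytoskeleton and ubiquitin system, 5 did, with 15 junctions in 10Q, 9 in sgRNA only and 1 in 92Q. They included Mycbp2, an E3 ubiquitin ligase, with 3, 3 and 1, and Lmo7 and Tbc1d4 with 3 in 10Q and 2 in sgRNA only each. Uchl3, a ubiquitin hydrolase, held 2 in 10Q and 1 in sgRNA only.

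**Figure D5:**
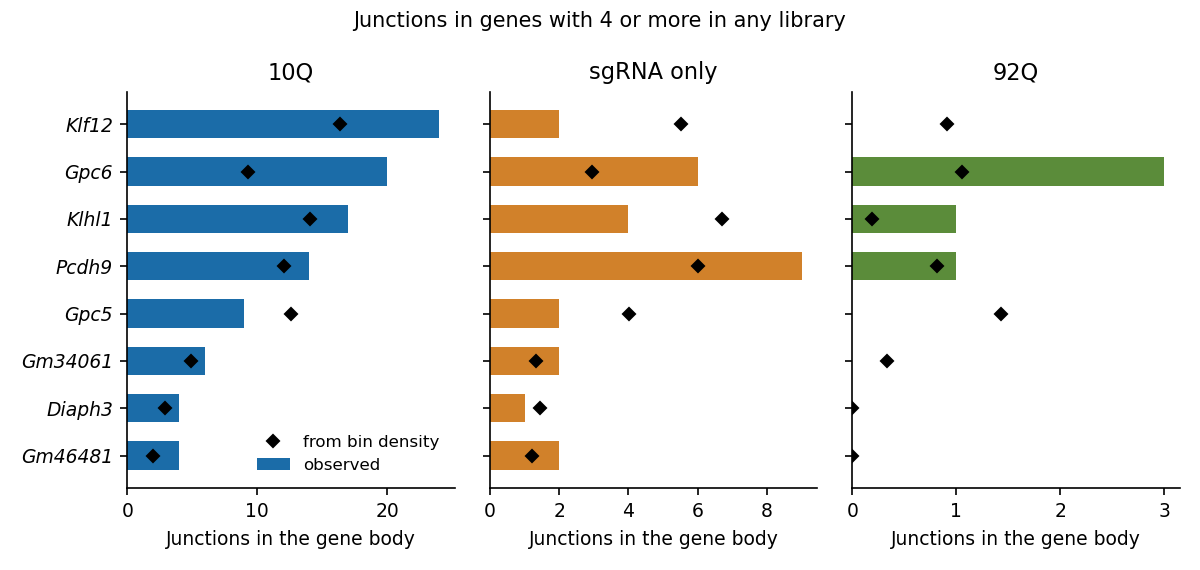
Distinct junctions in the bodies of genes with 4 or more in any library (horizontal bars from 0), in panels for 10Q, sgRNA only and 92Q; diamonds give the number from the same library's density on that side and distance bin. Klf12 has 24 junctions in 10Q against 16.4 from the bin density, and Gpc6 has 20 against 9.28.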

How the data were processed

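The deposited files list prey alignments as BED lines, 1 on-cut and 1 off-cut list per library; column 5 is the authors' alignment score, read as a mapping quality. Per the submitters' processing notes, Bowtie2 and the builds mm10 and mm9 were used. What filters were applied, how duplicates were handled and what each build was for is not given in the sources used here, and Dach1's position matched mm10. Lines with the same chromosome, 5′ end and strand were collapsed to 1 junction with its highest score. Members and gene lists were chosen with earlier results of these data known.

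Shares were compared by two-sided Fisher's exact tests, adjusted by Benjamini-Hochberg over 25 planned and 24 added tests at 0.05, the latter chosen after seeing the data. Intervals are Clopper-Pearson for shares, Poisson for densities and profile likelihood for exponents. A share of 0 was bounded by 3 counts. Densities of other chromosomes used lengths from 3 Mb to the last annotated gene. Named genes held 4 or more junctions in any library, or at least 1 if on a list. Gene positions, names and the promoter sequence were from RefSeq (GRCm38.p6). The scripts were tested on simulated data. Library depth was 13152 reads in 10Q, 8812 in sgRNA only, 963 in 92Q and 625 in non-targeting. Alternatives changed mapping quality, merging, read minimum, denominator, inner edge and distance split. Python 3.11.15, SciPy 1.17.1, NumPy 2.4.6, pandas 2.3.3 and Matplotlib 3.10.9 were used.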

Additional observations from a re-analysis of the deposited data

How the results depend on the processing

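Each group was 1 library, so no replicate could be left out. No paired analysis was possible because each group has 1 library. Over 34 planned results, 185 of 210 alternative values kept their direction and side of the threshold, and 90 of 103 did for the added tests. Each p is the adjusted p of Fisher's exact test, and differences are in percentage points.

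For the share of junctions in the range, 92Q minus sgRNA only passed Fisher's exact test with positions within 5 bp merged (-3.69, p = 0.000395), with 10 kb loci counted once (-5.52, p = 6.54e-05), without positions within 1 kb of another library (-6.09, p = 1.87e-05), over off-cut junctions (-5.67, p = 1.93e-05) and over other chromosomes plus the range (-6.49, p = 2.78e-06). It also passed that exact test with single-read junctions alone (-2.51, p = 0.0368), an alternative chosen after seeing the data. It did not pass the exact test at a mapping quality of 30 or more (-2.41, p = 0.204), with 2 or more reads (-3.15, p = 0.646) or with reads counted (-0.678, p = 0.605). sgRNA only minus non-targeting was lost at a mapping quality of 30 or more (5.13, p = 0.204), with 2 or more reads (3.15, p = 0.646), at an inner edge of 2 Mb (3.74, p = 0.0718) and with single reads alone (5.41, p = 0.0861). By the same exact test, 92Q minus 10Q was lost with 2 or more reads (-7.16, p = 0.132). The plus-strand difference between sides was lost in the exact test at a mapping quality of 30 or more in 10Q (16.0, p = 0.105) and sgRNA only (21.1, p = 0.167), was 7.14 there in 92Q, a reversed sign, and was lost in sgRNA only with 2 or more reads (32.5, p = 0.132). Mapping quality by distance in 10Q passed the exact test at a score of 10 (12.2, p = 0.0262). Loci of 3 or more went from 13 to 3 in 10Q and from 2 to 1 in sgRNA only at a mapping quality of 30 or more.

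Differences that were not called also changed sign. They were the 1 to 5 Mb share of 10Q minus sgRNA only with reads counted (-1.16) and at an inner edge of 2 Mb (-0.460), and the centromeric share of 92Q minus 10Q without shared positions (2.06) and at 2 Mb (6.08), and of 92Q minus sgRNA only at 2 Mb (3.67). Mapping quality by distance in 10Q reversed with reads counted (-1.71) and a split at 3 Mb (-3.52), and side by distance with 10 kb loci in 10Q (0.760) and a split at 10 Mb in sgRNA only (1.33). Among added tests, the bait-facing share of 92Q reversed against beyond 20 Mb at a mapping quality of 30 or more (1.21) and against 10 kb to 1 Mb without shared positions (-23.8), and mapping quality of 10Q against beyond 20 Mb reversed with 2 or more reads (-8.10). Added comparisons that passed Fisher's exact test under an alternative alone were the bait-facing share of sgRNA only against beyond 20 Mb with 2 or more reads (27.0, p = 0.0468), with positions within 5 bp merged (14.0, p = 0.0486) and with reads counted (19.7, p = 2.63e-05), the same share of 10Q with reads counted (9.12, p = 0.00370), and the mapping quality of 10Q against 10 kb to 1 Mb with reads counted (-7.29, p = 0.0184). The cause was not tested for any of these. With 2 or more reads 92Q had no junction in the range, so most of its results could not be given. The 22 junctions of 92Q leave wide intervals, and its values that missed the threshold do not show likeness.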

Other observations

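In the 4 libraries of the other bait site, the same 2 stretches of chromosome 14 held 0 of 104 distinct junctions in 10Q, 1 of 213 in 92Q, 3 of 575 in sgRNA only and 0 of 59 in non-targeting. The counts of 0 allow shares of up to 2.88% in 10Q and 5.08% in non-targeting. No comparison with site 1 was tested.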
